A study of Homo sapiens with 2 samples.

Results

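The genes of Polycomb repressive complex 2 (PRC2) and of the H3K27 demethylases were examined for OTX2 binding in D283 tumorspheres. They are 9 of the 19881 protein-coding genes placed on GRCh38, taken by name: EZH1, EZH2, EED, SUZ12, JARID2, RBBP4, RBBP7, KDM6A and KDM6B. A peak was assigned to a gene when at least 1 bp of it overlapped the GENCODE gene record extended by 20 kb on each side. The assigned peaks numbered 103 of the 137412 in the deposited list.

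D283 is an established cell line of medulloblastoma (MB), a childhood tumor of the cerebellum. Its cells were grown as floating tumorspheres in neural stem cell medium and express OTX2, a homeobox transcription factor. No treatment was named for these samples. The study calls the cells used OTX2-high, a term it also gives to its scramble siRNA controls. Chromatin immunoprecipitation sequencing (ChIP-Seq) gave 1 library pulled down with an OTX2 antibody and 1 input library without antibody, both from this single line. After removal of duplicates the OTX2 library held 61259377 fragments and the input library 22521186. With 1 library each there was no replicate error, no second condition and no test between groups, and gene expression was not part of these data, so the markers of the line could not be checked. The intervals given for peak heights are exact 95% Poisson intervals and cover counting error only.

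PRC2 places methyl groups on lysine 27 of histone H3, and the trimethylated form, H3K27me3, marks silenced developmental genes. EZH1 and EZH2 are its alternative methyltransferases, EED binds existing H3K27me3 and stimulates the enzyme, and SUZ12 is the scaffold. RBBP4 and RBBP7 are closely related histone-binding subunits, and JARID2 is a cofactor that helps bring the complex to chromatin. KDM6A (also called UTX) and KDM6B (also called JMJD3) remove the mark, so that the list holds both the writers and the erasers of H3K27 methylation. KDM6A is known as a recurrently mutated gene in MB.

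All 9 genes had at least 1 OTX2 peak within 20 kb, as did 88.1% of all protein-coding genes. A TSS peak, one that overlaps the 5 kb before or the 2 kb after the 5′ end of the gene record, was present at 7 of the 9 genes, against 57.2% of all protein-coding genes. The genes with a TSS peak were EZH1, EZH2, EED, SUZ12, JARID2, RBBP4 and KDM6B. RBBP7 and KDM6A, the members on chromosome X, had none. On chromosome X 30.1% of protein-coding genes had a TSS peak and 68.5% a peak within 20 kb, so that the absence of a TSS peak was the more frequent state there. The share with a TSS peak was 61.5% on chromosome 1 (RBBP4), 62.7% on chromosome 6 (JARID2), 51.2% on chromosome 11 (EED), 56.2% on chromosome 17 (EZH1, SUZ12 and KDM6B) and 37.4% on chromosome 7 (EZH2). When TSS peaks were required to reach a −log10 q of 5 the members with one were still 7, against 52.0% of all protein-coding genes. When at least 5-fold enrichment over the local input was required they were 6, against 38.5%, and EZH1 was the member lost. With the start of the canonical transcript in place of the 5′ end of the record they were again 7, against 58.5%.

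The promoters of SUZ12, JARID2 and EED are shown because an OTX2 peak covered a RefSeq start of each gene and because they differ in the motif they hold. A peak also covered a RefSeq start of EZH1 and of RBBP4, whose promoters held no motif match and are not shown. Each sequence is the 250 bases before the RefSeq start on the gene's strand in GRCh38.p14, read 5′ to 3′. The capitals mark the summit base with 10 bases on each side in SUZ12 and JARID2, and a motif match in EED.
SUZ12, chr17:31936757-31937006, plus strand: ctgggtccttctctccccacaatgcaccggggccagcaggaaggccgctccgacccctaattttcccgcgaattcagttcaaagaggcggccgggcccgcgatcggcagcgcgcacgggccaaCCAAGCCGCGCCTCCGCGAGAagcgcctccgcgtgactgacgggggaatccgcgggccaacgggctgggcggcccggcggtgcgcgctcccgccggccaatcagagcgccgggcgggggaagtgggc
JARID2, chr6:15245819-15246068, plus strand: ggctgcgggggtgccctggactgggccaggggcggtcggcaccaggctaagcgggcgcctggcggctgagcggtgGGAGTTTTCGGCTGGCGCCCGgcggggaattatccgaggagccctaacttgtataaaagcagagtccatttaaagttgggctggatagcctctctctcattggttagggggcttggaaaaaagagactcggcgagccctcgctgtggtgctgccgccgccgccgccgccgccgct
EED, chr11:86244503-86244752, plus strand: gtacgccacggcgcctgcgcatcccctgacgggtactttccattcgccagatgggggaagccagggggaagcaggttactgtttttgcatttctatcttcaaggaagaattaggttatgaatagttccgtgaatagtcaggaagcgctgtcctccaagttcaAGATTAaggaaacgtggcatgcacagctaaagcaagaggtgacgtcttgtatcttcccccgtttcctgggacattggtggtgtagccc
TAATCC and TAATCT, the OTX2 motifs named in the study, were looked for on either strand (GGATTA and AGATTA when read from the other). RefSeq gave 14 such promoters for the 9 genes, and 1 of them, that of EED, held a match. Among 21484 promoters of protein-coding genes of the same length 9.61% held at least 1 match. The EED match was a TAATCT on the strand opposite to the gene, at chr11:86244665-86244670, and its first base lay 96 bp before the summit of the peak there. The SUZ12 and JARID2 windows held the summits of TSS peaks but neither motif. A match is only a description of the letters, and sequence outside the 14 promoter windows was not analysed here.

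**Figure D1:**
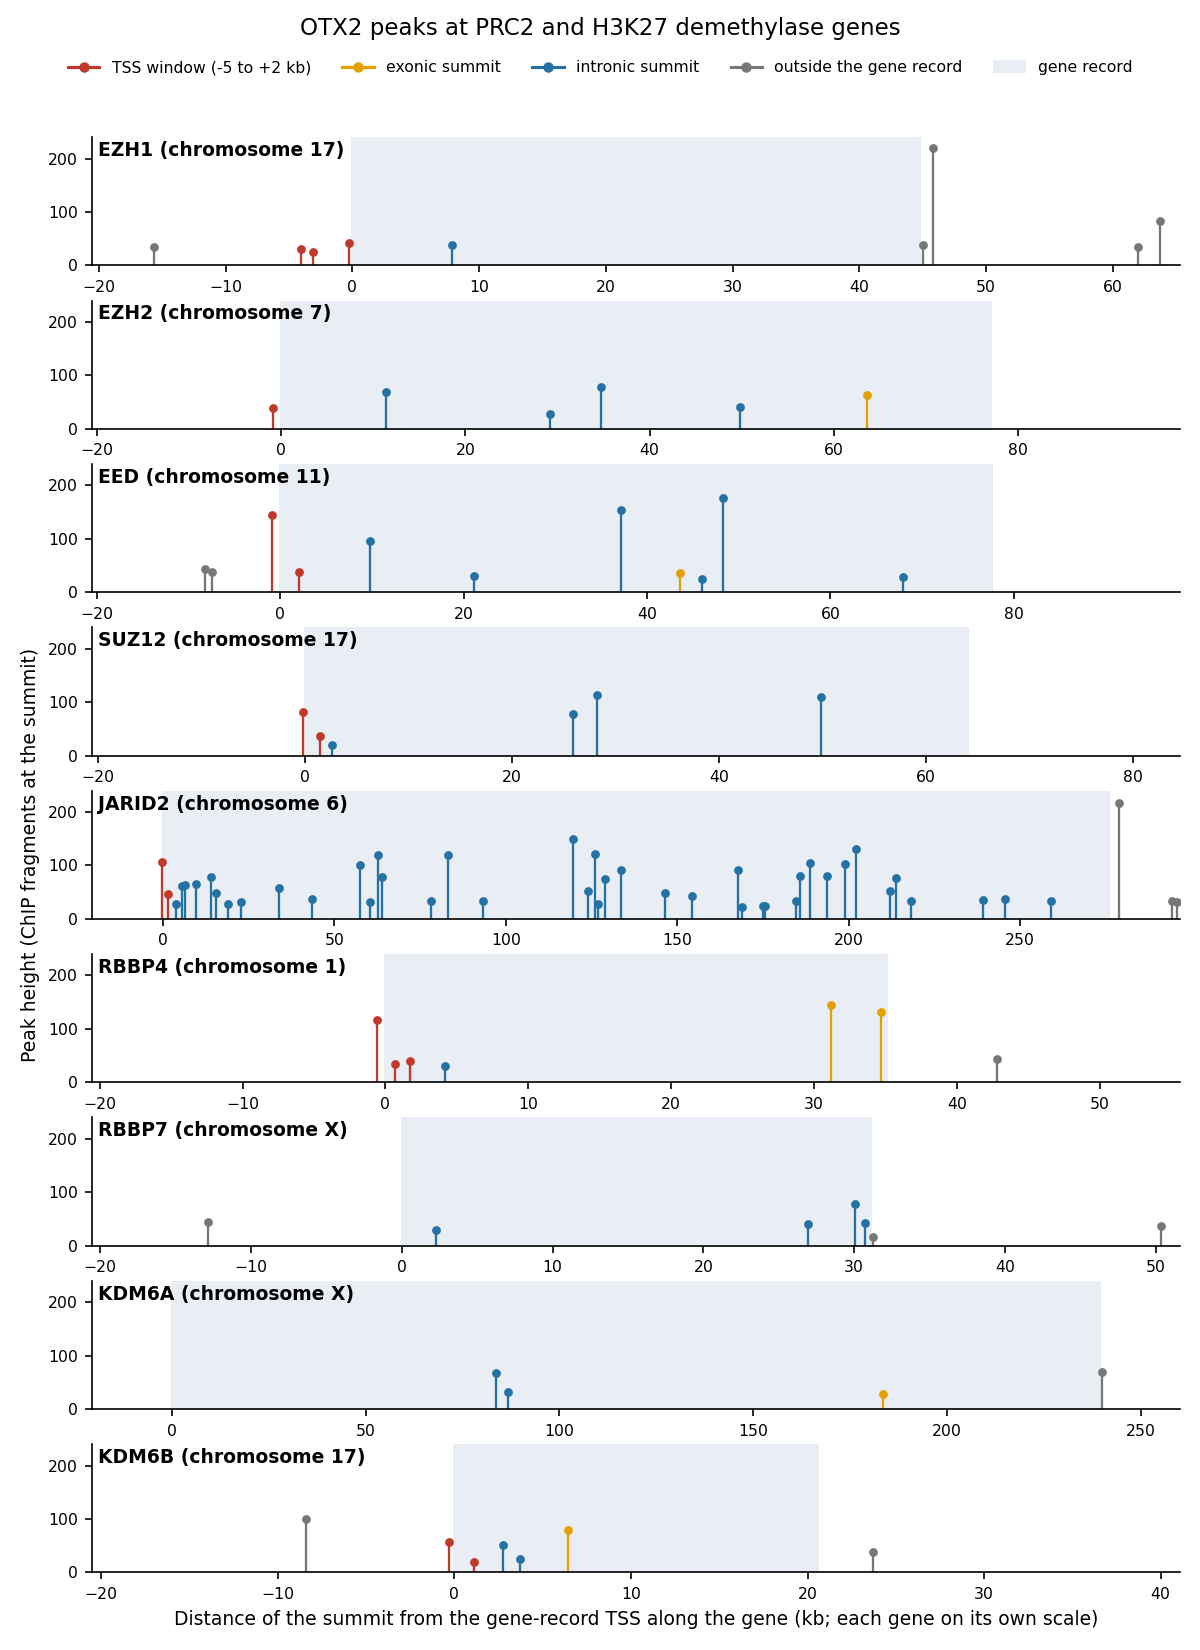
Each panel shows the OTX2 peaks within 20 kb of the gene record of 1 gene, with the distance of the summit from the TSS along the gene (kb, a separate scale for each gene) on the x axis and the peak height in ChIP fragments on the y axis. The shaded box is the gene record and the colors give the peak class. JARID2 carried 46 peaks and KDM6A 4, although the genes are of similar length.

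By position, 15 of the 103 peaks were TSS peaks, 65 had their summit in an intron, 6 in an exon and 17 outside the gene record. Introns held 63.1% of the members' peaks, against 52.2% of the peaks assigned to all protein-coding genes by the same rule, and positions outside the record 16.5% against 30.4%. TSS peaks made up 14.6% and 14.2%. The intronic share rested on JARID2, which had 41 of the 65 intronic peaks, and 24 of the 57 peaks of the other 8 genes were intronic. The share outside the records depended on JARID2 as well, with 3 of its 46 peaks there and 14 of the 57. Of the 17 peaks outside the records, 12 lay downstream of the gene and 5 upstream.

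The peaks at the members were not tall as a group. Their median height was 44 fragments, against 53 over all peaks, and 44 of the 103 rose above that median. Fold enrichment over the local input was 5.95 at the median, against 6.10 over all peaks, and 23.3% of the members' peaks were enriched at least 10-fold, against 26.3% of all peaks. Heights ranged from 16 fragments, at RBBP7, to 219, at EZH1.

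The tallest peak also varied among the genes. It reached 219 fragments (95% interval from 190.95 to 250.01) at EZH1 and 217 (189 to 248) at JARID2, 176 (151 to 204) at EED, 145 (122 to 171) at RBBP4 and 114 (94.0 to 137) at SUZ12. It reached 99 (80.5 to 121) at KDM6B, 79 (62.5 to 98.5) at EZH2, 78 (61.7 to 97.3) at RBBP7 and 70 (54.6 to 88.4) at KDM6A. Each gene overlapped its neighbors in this order within the counting intervals, while the intervals of EZH1, JARID2, EED and RBBP4 lay above those of EZH2, RBBP7 and KDM6A. These maxima were taken over unequal numbers of peaks, from 4 at KDM6A to 46 at JARID2. The median heights did not follow their order, with 52.5 fragments at EZH2, 49.5 at KDM6A and 40 at RBBP7. They were 38 at EZH1, 52.5 at JARID2, 37 at EED and 43 at RBBP4. The 3 genes with the lowest maxima are those on chromosomes 7 and X, where the median height of all peaks was 46 and 47 fragments, against 52 on chromosomes 6 and 11, 57 on chromosome 1 and 59 on chromosome 17. With the TSS at the 5′ end of the record, in no gene was the tallest peak a TSS peak. It was intronic at EZH2, EED, SUZ12 and RBBP7, exonic at RBBP4 and outside the record at EZH1, JARID2, KDM6A and KDM6B. When the starts of all annotated transcripts were used, the tallest peaks of EZH2 (79) and SUZ12 (114) were TSS peaks.

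**Figure D2:**
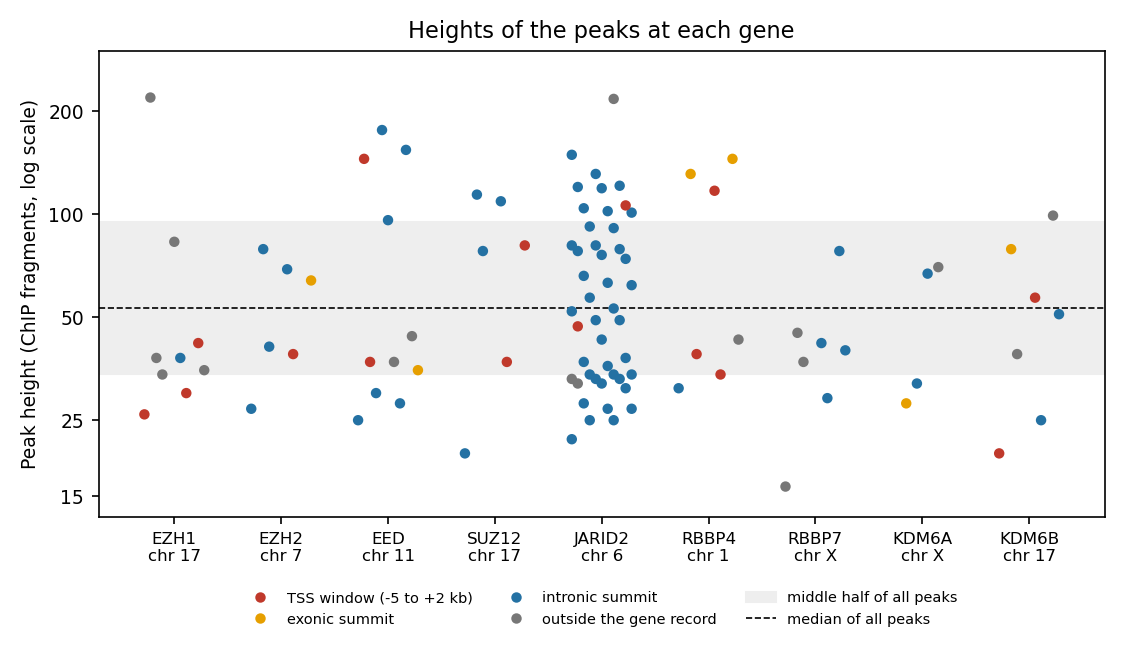
Each point is 1 OTX2 peak at the gene named on the x axis, and the y axis gives its height in ChIP fragments on a log scale. The band and the dashed line are the middle range and the median, 53 fragments, of all 137412 peaks. The peaks of most genes spread across the band, and the tallest, of 219 and 217 fragments, lay outside the records of EZH1 and JARID2.

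EZH1, the methyltransferase that prevails in non-dividing cells, lies at chr17:42700275-42745049 on the minus strand and had 9 peaks. The 3 TSS peaks were low, with 42, 26 and 30 fragments at 287, 3064 and 4077 bp upstream of the TSS. The first of these, chr17:42744950-42745641, had a pileup (the scaled coverage at the summit) of 30.9, 4.46-fold enrichment and a −log10 q of 9.99. The only peak inside the gene, in intron 1, had 38 fragments, so nothing inside EZH1 or near its TSS exceeded the median of all peaks. The tallest peak, chr17:42698994-42699555, had its summit 1016 bp beyond the 3′ end of the record, with a pileup of 161, an enrichment of 14.7-fold and a −log10 q of 128. A lncRNA without a gene name starts within 1 kb of that summit. The local input under this peak was 10.0, on the scale of the pileup, where the lowest value in the list was 3.98. The other peaks outside the record had 83, 34, 38 and 35 fragments, and 3 of the 4 had their nearest protein-coding TSS at CNTNAP1 or RAMP2.

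EZH2, the main methyltransferase of proliferating cells, lies at chr7:148807257-148884321 on the minus strand and had 6 peaks, all of which were closest to its own TSS. The TSS peak, chr7:148884997-148885479, had its summit 911 bp upstream, with 39 fragments (27.7 to 53.3), a pileup of 28.7 and 5.95-fold enrichment. The taller peaks lay inside the gene, where intron 1 held summits with 69, 27 and 79 fragments and intron 3 held 41. The tallest, chr7:148849408-148850024, lay 34.7 kb into the gene, with a pileup of 58.1 and an enrichment of 11.9-fold. A further summit with 64 fragments fell in intron 8, in an exon of a retained-intron transcript that carries no coding sequence. The 20 kb limit mattered at EZH2. The next peak upstream, chr7:148904344-148904871, began 20023 bp from the record and was therefore not counted, although it held 137 fragments (115 to 162) with 20.3-fold enrichment, more than any counted EZH2 peak. Just inside the limit, the farthest counted peak was a JARID2 peak with its summit 19554 bp beyond the record and 32 fragments.

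EED, the subunit that reads H3K27me3, has a record at chr11:86201212-86278813 on the plus strand, with 11 peaks. The position of its TSS depends on the transcript, since the canonical transcript begins 43541 bp downstream of the 5′ end of the record. At the start of the record 2 TSS peaks were called, and the taller, chr11:86199960-86200530, lay 916 bp upstream with 145 fragments (122 to 171), a pileup of 107 and an enrichment of 10.8-fold. At the canonical start a single peak was called, chr11:86244096-86245246, with its summit in the untranslated part of exon 1. It held 35 fragments (24.4 to 48.7), a pileup of 25.7 and 3.77-fold enrichment, and it is the peak over the promoter printed above. With either start EED had a TSS peak, but the intervals of the heights did not overlap. The tallest EED peaks flanked the canonical start inside the record. One, chr11:86238108-86238647, had 154 fragments and an enrichment of 19.0-fold, and the other, chr11:86249228-86250081 in intron 1 of the canonical transcript, had 176 fragments, a pileup of 129 and 18.6-fold enrichment. The other 4 intronic summits held 96, 30, 25 and 28 fragments, and 2 peaks upstream of the record held 44 and 37.

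SUZ12, the scaffold of the complex, lies at chr17:31937007-32001038 on the plus strand and had 6 peaks, none of them outside the gene and its TSS window. The TSS peak, chr17:31936524-31937119, had its summit 117 bp upstream with 81 fragments (64.3 to 101), a pileup of 59.6, an enrichment of 9.78-fold and a −log10 q of 38.7. It had the highest fold enrichment of the SUZ12 peaks and lies over the SUZ12 promoter printed above. A second TSS peak in intron 1 had 37 fragments, and a low peak beyond the window, also in intron 1, had 20. Farther in, intron 4 held peaks with 78 and 114 fragments and intron 9 held 1 with 109. The peak with 114, chr17:31965091-31965505, was the tallest in fragments but had 5.30-fold enrichment, because the local input there was 15, the highest of all SUZ12 peaks. The local input at SUZ12 had a median of 9.0, the highest of the 9 genes, and without peaks at 2 or more times the lowest local input SUZ12 was left with 2 peaks.

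JARID2, the cofactor, lies at chr6:15246069-15522042 on the plus strand and had 46 peaks, a count at percentile 99.1 of all protein-coding genes. Per 100 kb, which allows for its length, it lay at percentile 95.1 of all protein-coding genes and 93.2 of those on chromosome 6. The peaks filled the gene, with 18 summits in the first 100 kb downstream of the TSS, 17 in the next 100 kb and 7 in the rest. Intron 1 held 21 intronic peaks, intron 3 held 10, intron 2 held 4 and intron 4 held 3, while introns 5, 6 and 9 held 1 each. The median distance between neighboring summits was 4.42 kb and the largest 26.3 kb. Heights ran from 22 to 217 fragments with a median of 52.5, so that the peaks were many but of ordinary height. The TSS peak, chr6:15245300-15246102, had its summit 165 bp upstream with 106 fragments (86.8 to 128), a pileup of 77.9 and an enrichment of 7.89-fold, over the JARID2 promoter printed above. JARID2-DT, a divergent lncRNA, starts within 1 kb of this summit. A second TSS peak, 1439 bp downstream in intron 1, had 47 fragments.

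Among the intronic JARID2 peaks, the tallest was chr6:15365120-15366419 in intron 1, 119.5 kb from the TSS, with 149 fragments (126 to 175), a pileup of 110 and 12.3-fold enrichment. The highest fold enrichment of all 103 peaks, 19.5, was found in intron 3 at chr6:15447784-15448223, with 131 fragments and a −log10 q of 92.4. Of the 46 peaks, 11 were enriched at least 10-fold. The tallest JARID2 peak of all lay downstream, at chr6:15524572-15525217, with its summit 2855 bp beyond the 3′ end, 217 fragments, a pileup of 160 and an enrichment of 17.5-fold. Its nearest protein-coding TSS was that of DTNBP1, at a distance of 138161 bp. The other 2 downstream peaks had 33 and 32 fragments.

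RBBP4, a histone-binding subunit, lies at chr1:32651142-32686211 on the plus strand and had 7 peaks. Its strongest TSS peak, chr1:32649822-32651357, was 1536 bp long, the only 1 of the 103 to reach 1500 bp. It held 117 fragments (96.8 to 140.2), a pileup of 86.0 and 8.70-fold enrichment. The peak covered the starts of both RBBP4 and ZBTB8OS, its neighbor on the minus strand, and its summit lay nearer to that of ZBTB8OS (365 bp) than to that of RBBP4 (604 bp). The other TSS peaks, in introns 1 and 2, had 34 and 39 fragments. The tallest peaks were at the opposite end of the gene, in exon 12, the last exon, after the coding part. They were chr1:32681598-32682561 with 145 fragments, a pileup of 107 and an enrichment of 17.9-fold, and chr1:32685632-32686114 with 131 fragments and 18.7-fold enrichment. An intronic peak with 31 fragments and a downstream peak with 43 completed the gene.

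RBBP7, its paralog, lies at chrX:16839283-16870362 on the minus strand and also had 7 peaks, but no TSS peak. The peak nearest its TSS, chrX:16867983-16868255, had its summit 2280 bp downstream in intron 2, with 29 fragments, a pileup of 21.3 and an enrichment of 4.48-fold. It fell just outside the TSS window, while the next on the upstream side lay 12.9 kb away with 45 fragments. The other intronic peaks had 42, 78 and 40 fragments and stood at the 3′ end of the record, past the end of the canonical transcript. The tallest, chrX:16840066-16840550, had a pileup of 57.3 and 8.34-fold enrichment. The downstream peaks had 37 and 16 fragments, the latter being the lowest of all 103 peaks with a −log10 q of 1.42.

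KDM6A, a demethylase that works within the KMT2C and KMT2D complexes, lies at chrX:44873188-45112779 on the plus strand and had 4 peaks in a window of 280 kb. No peak was found near its TSS. The closest, chrX:44956491-44956893 in intron 2, was 83.5 kb downstream of the TSS with 67 fragments (51.9 to 85.1), a pileup of 49.3 and an enrichment of 10.1-fold, and a second in the same intron had 32 fragments. A summit with 28 fragments fell in intron 10, in an exon of a retained-intron transcript. The tallest, chrX:45112925-45113308, had its summit 317 bp beyond the 3′ end, with 70 fragments, a pileup of 51.5 and 10.5-fold enrichment. When the starts of all annotated KDM6A transcripts were used, the peak with 28 fragments became a TSS peak, and the RBBP7 peak with 29 did so likewise, so that all 9 genes then had one.

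KDM6B, the other demethylase, lies at chr17:7834217-7854796 on the plus strand and, at 20.6 kb, is the shortest gene of the list. It had 7 peaks. The TSS peak, chr17:7833791-7834143, had its summit 281 bp upstream with 57 fragments (43.2 to 73.9), a pileup of 41.9 and an enrichment of 8.61-fold. A second TSS peak had 20 fragments, and intron 1 held 2 more peaks with 51 and 25. A summit with 79 fragments and 11.9-fold enrichment fell in intron 2, in an exon of a transcript without a defined coding part. It lay 669 bp from another annotated start of KDM6B and became a TSS peak when all annotated starts were used. The tallest was upstream, chr17:7825172-7826071, with its summit 8399 bp before the TSS, 99 fragments, a pileup of 72.8, an enrichment of 14.8-fold and a −log10 q of 60.8. KDM6B was its nearest protein-coding TSS. The downstream peak, with 39 fragments, had its summit 202 bp from the TSS of CYB5D1. The local input was at its lowest value, 3.98 to 3.99, at all 7 peaks, so the KDM6B folds rest on the floor that peak calling sets for the input.

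Peaks per 100 kb were compared with the whole chromosome and with 1 Mb on each side of the window. JARID2 had the highest density, 14.6, against 5.08 on chromosome 6 and 6.20 in the flanks. KDM6B followed with 11.6, against 5.55 on chromosome 17 and 3.60 in the flanks, and EZH1 with 10.6, where the flanks were also dense at 9.0. RBBP7 had 9.85, against 2.0 on chromosome X and 2.65 in the flanks, the largest ratio to the chromosome of the 9 genes (4.93). EED had 9.35 and RBBP4 9.32, which were 1.77 and 1.70 times the values of their chromosomes. SUZ12, with 5.77, and EZH2, with 5.13, lay close to the median of all protein-coding genes, 5.09, although EZH2 exceeded chromosome 7 as a whole by a ratio of 1.88. KDM6A had the lowest density, 1.43, below both chromosome X and its flanks (2.15). RBBP7 and KDM6A thus stood apart on the same chromosome, at the percentiles 96.9 and 40.3 of its protein-coding genes. These densities rest on 4 to 46 peaks a gene and have no replicate error.

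**Figure D3:**
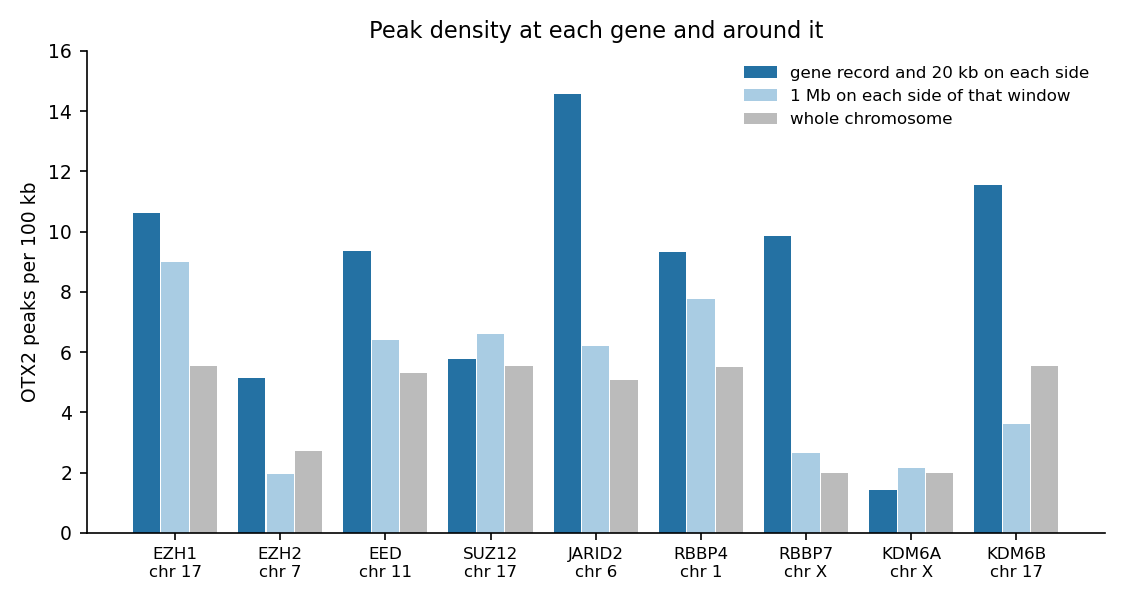
Bars give the OTX2 peaks per 100 kb in the gene record with 20 kb on each side, in 1 Mb on each side of that window, and over the whole chromosome. The bar of JARID2 is the tallest at 14.6, and RBBP7 exceeds chromosome X (2.0) by the largest ratio, while KDM6A and SUZ12 do not exceed their flanks.

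The list holds paralogs that can be set side by side: EZH1 and EZH2, RBBP4 and RBBP7, KDM6B and KDM6A. In each, the gene named second lies on chromosome 7 or X, which had 27.3 and 20.0 peaks per Mb, against 49.1 on the other autosomes. Differences within a pair therefore cannot be told apart from the difference between chromosomes. EZH1 and EZH2 had TSS peaks of 42 and 39 fragments with overlapping intervals (30.3 to 56.8 and 27.7 to 53.3), and their densities lay at the percentiles 81.3 and 80.7 of their own chromosomes. The ratios of these densities to the flanks were less alike, 1.18 and 2.63. Of the 9 EZH1 peaks 4 were nearest to its own TSS, and of the 6 EZH2 peaks all 6. RBBP4 had a TSS peak of 117 fragments and RBBP7 none, but within its chromosome the density of RBBP7 ranked higher, at percentile 96.9 against 72.5. KDM6B ranked above KDM6A within the chromosome as well, at percentile 84.8 against 40.3, and held 7 peaks where KDM6A, a far longer gene, held 4.

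The local input also differed between the members. Of the 103 peaks, 35 lay at the floor of the local input, against 26.4% of all peaks, and 16 lay at 2 or more times the floor, against 17.9%. Without these 16 peaks the number of members with a TSS peak was still 7. The tallest TSS peak fell to 37 fragments at EED, 47 at JARID2 and 39 at RBBP4, however, since the peaks with 145, 106 and 117 fragments had a local input of 9.0. The tallest peak of any class fell from 219 to 83 fragments at EZH1 and from 217 to 131 at JARID2, where the tallest intronic peak, with 149, was also left out. At SUZ12 it fell from 114 to 81, the TSS peak, and at the other 6 genes the height was the same with and without them. The part of the local input in these heights was not tested.

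The partners of these proteins were examined from a list of 51 genes, and 41 of them (80.4%) had a TSS peak, against the 57.2% of all protein-coding genes. A TSS peak enriched at least 5-fold was present at 26 of the 51, against 38.5% of all protein-coding genes. Among the PRC2 accessory subunits and the inhibitor EZHIP, 6 of 7 had a TSS peak of any enrichment. PHF19, a Polycomb-like subunit, had the tallest with 166 fragments (142 to 193) and 23.5-fold enrichment, 413 bp upstream of the 5′ end of its record, which lies 17708 bp from the canonical start, followed by MTF2 with 120 and LCOR with 74. EZHIP, on chromosome X, had no peak within 20 kb and was the only gene of the 51 without one. Among the subunits of PRC1, the complex that ubiquitinates histone H2A, 17 of 19 had a TSS peak. The tallest were at PHC2, with 187 fragments (161 to 216) and an enrichment of 20.9-fold, at CBX6 with 147 and at RNF2, a catalytic subunit, with 135. The PHC2 summit lay 2650 bp downstream of the 5′ end of its record, so that this peak reached the TSS window only at its edge. PCGF3 and CBX2 had no TSS peak.

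Of the partners of KDM6A in its methyltransferase complexes, 6 of 9 had a TSS peak, the tallest at KMT2D (103 fragments), WDR5 (96) and ASH2L (85), while KMT2C, NCOA6 and DPY30 had none. Both H3K27 acetyltransferases had one, with 72 fragments at EP300 and 27 at CREBBP. Of the 10 NuRD genes, which share RBBP4 and RBBP7 with PRC2, 7 had a TSS peak. CHD4, the remodeling ATPase, had the tallest with 136 fragments and 20.3-fold enrichment, and GATAD2B and MTA2 followed with 84 and 55. The CHD4 summit lay 1923 bp upstream of the 5′ end of its record, and this end lies 7145 bp from the canonical start. In the H2AK119 deubiquitinase group ASXL3, ASXL2 and ASXL1 had TSS peaks of 152, 78 and 38 fragments and BAP1, the catalytic subunit, had none. With canonical starts the number of partner genes with a TSS peak was again 41. Over the 41 genes the median of the tallest TSS peak was 54 fragments, equal to the median of all protein-coding genes with a TSS peak. Among the 7 members with one, the tallest TSS peak lay above this value at EED, RBBP4, JARID2, SUZ12 and KDM6B, and below it at EZH1 and EZH2. This side of the median turned for EED with the canonical start (35 fragments) and for EZH2 with any transcript start (79). It turned for RBBP4 when only peaks nearest to its own TSS were counted (39). Without the peaks of high local input it turned for EED, JARID2 and RBBP4.

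**Figure D4:**
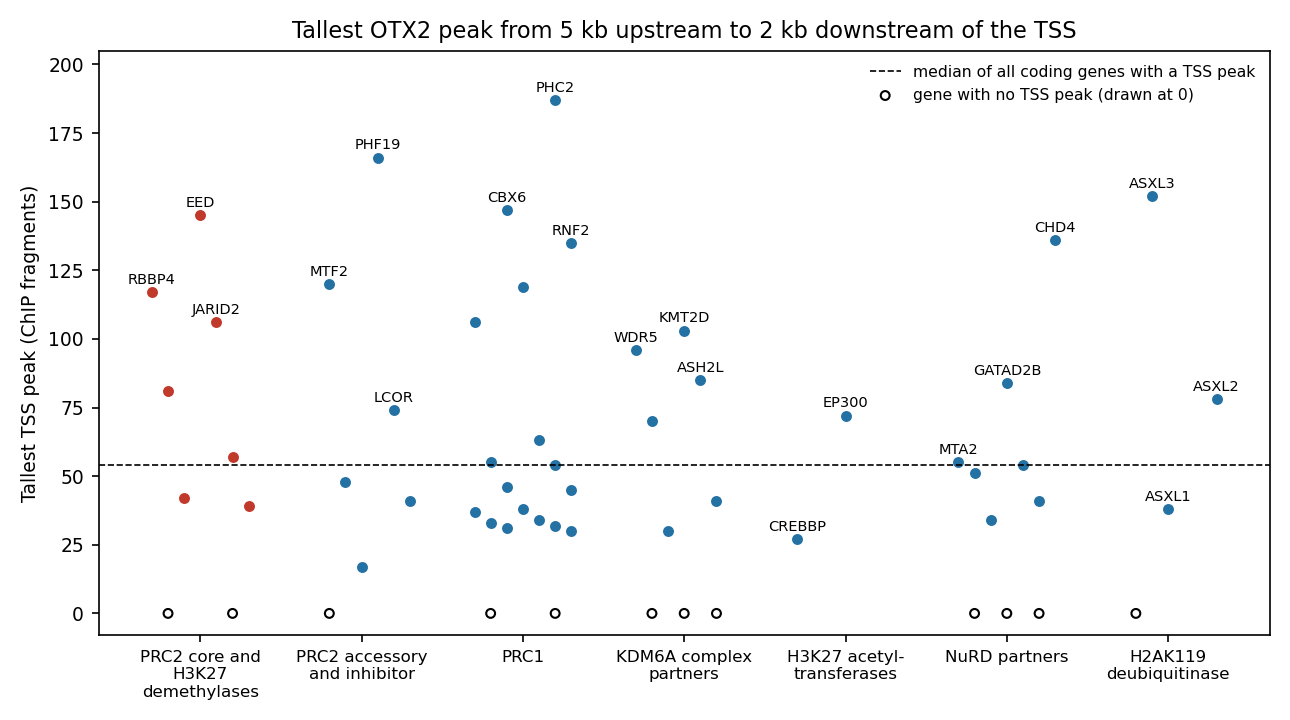
Each point is 1 gene, placed by the height in ChIP fragments of its tallest TSS peak, and open circles at 0 are genes without a TSS peak. The dashed line is the median of all protein-coding genes with a TSS peak, 54 fragments. The members, in red, reach 145 fragments and the partner genes, in blue, 187, with points on both sides of the line in every group.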

How the data were processed

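OTX2-bound DNA and input DNA of D283 tumorspheres were sequenced, 1 library each, from chromatin sheared to about 400 bp. The authors aligned the reads with bowtie2 2.2.4 (GRCh38). Peaks were called from paired-end fragments by MACS2 2.1.0.20140616 at a q-value cutoff of 0.05, and duplicates beyond 1 fragment per position were dropped. The study states that blacklisted regions were masked. The deposited pileup is a signal, the coverage at the summit scaled towards the input library. Fold enrichment, as deposited, divides pileup by local input after 1 is added to each (a ratio). For significance the deposited −log10 q-value was used and the −log10 p-value column was not.

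Each fragment added 0.735 to the pileup, 2 times the ratio of input to OTX2 fragments, and all heights were whole fragments within 0.05. The local input was derived from pileup and fold enrichment. Its floor (3.98, within 0.1%) caps the fold where the input is low, with a depth ratio of 2.72 between the OTX2 and input libraries. Gene positions were the GRCh38 positions recorded for each exon in GENCODE release 44. A peak overlapping the TSS window was a TSS peak, and the others were classed by their summit. Background shares are over all 19881 protein-coding genes. For each member the tallest peak of each class is named, and for each partner group the 3 tallest TSS peaks. The members and lists were chosen with earlier results of these data known, so no list was tested. Overlap counting was tested on simulated peaks. Promoter sequences are from RefSeq (GRCh38.p14) and all 9 members matched. The genome sequence at hand was of another build, so sequence was read only in these promoter windows, some of which peaks overlap. Tables were handled with pandas 2.3.3 and numpy 2.4.6 under Python 3.11.15, intervals with scipy 1.17.1, and plots with matplotlib 3.10.9.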

Additional observations from a re-analysis of the deposited data

How the results depend on the processing

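No paired analysis was possible because the data hold a single OTX2 library and a single input. The number of members with a TSS peak stayed between 6 and 9 under all 8 alternatives, and all 9 had a peak nearby under each alternative run. At a minimum of 5-fold enrichment the counts fell, by construction of the threshold, to 64 peaks, 9 TSS peaks, 40 intronic peaks, 11 distal peaks and 26 partner genes with a TSS peak. Distal peaks numbered 10 with 10 kb on each side, 45 with 50 kb, and 5 when only peaks nearest to the member's own TSS were counted. With any transcript start 29 peaks were TSS peaks. The other 40 recomputed counts were within 1.5 times the value reported. The canonical start and the removal of peaks with high local input were chosen after seeing the data. The tallest peak moved beyond its counting interval in 12 cases and stayed within it in 33. Counting only peaks nearest to the member's own TSS, it fell from 219 to 42 fragments at EZH1, from 145 to 39 at RBBP4 and from 217 to 149 at JARID2. The input depth limits the folds most at peaks on the floor.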

Other observations

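Some of the tallest OTX2 peaks of these neighborhoods lay beyond 20 kb. Between 20 and 50 kb from the records, EED had 9 further peaks, of which the tallest, chr11:86172044-86173245, held 278 fragments (246 to 313) with a fold enrichment of 29.3, 28.0 kb upstream of the record. Its nearest protein-coding TSS was that of EED. Downstream of JARID2, 40.4 kb from the record, chr6:15562462-15563545 held 245 fragments with a fold enrichment of 36.1, higher than any peak counted above. EZH2, EED and both members on chromosome X had a taller peak in this range than nearer by, with counting intervals that did not overlap. At SUZ12 and JARID2 the tallest peak in this range was also the taller, but the counting intervals overlapped. At EZH2 it held 137 fragments against 79, and at SUZ12 115 against 114. At RBBP7 it held 239 fragments with a fold enrichment of 35.3, 47.5 kb downstream and 4622 bp from the TSS of TXLNG, and at KDM6A 148 fragments with a fold enrichment of 22.0, 29.1 kb downstream. EZH1, RBBP4 and KDM6B had 105, 52 and 36 fragments at most in this range, less than their counted maxima of 219, 145 and 99.

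Several counted peaks lay at other genes. Of the 103, 24 had their nearest protein-coding TSS at another gene, and 7 overlapped the TSS window of another gene. These were 4 peaks of RBBP4 in the window of ZBTB8OS, 2 peaks downstream of EZH1 in windows of CNTNAP1, CCR10 or PLEKHH3, and the KDM6B peak at CYB5D1.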
